A study of Canis lupus familiaris with 4 samples.

Results

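*CXCL8*, *IL17A*, *IL1B* and *CEACAM1* are 4 of the 160 targets of a custom canine NanoString panel, and they were taken as its genes of neutrophil recruitment and IL-17 signalling. Each was found by its RefSeq transcript with the version ignored: NM_001003200.1 for *CXCL8*, NM_001165878.1 for *IL17A*, NM_001037971.1 for *IL1B* and NM_001097557.1 for *CEACAM1*. All 4 transcripts were on the panel, and none was left out by a filter.

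Neutrophils enter inflamed skin along chemokine gradients. *CXCL8* encodes interleukin-8, the chemokine that binds CXCR1 and CXCR2 on neutrophils. *IL17A* encodes the cytokine of Th17 and gamma delta T cells, which drives keratinocytes and fibroblasts to make neutrophil chemokines and antimicrobial peptides. *IL1B* encodes interleukin-1 beta, made mainly by myeloid cells as an inactive precursor, which induces *CXCL8* and supports the Th17 fate. *CEACAM1* encodes an adhesion receptor of neutrophils that is also made by epithelium, endothelium and activated lymphocytes. Related CEACAM genes lie beside it in the dog genome, and whether its probe also binds their transcripts was not tested. In pyoderma, a bacterial infection of the skin, neutrophils are the typical infiltrating cell.

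The biopsies were archival, formalin-fixed and paraffin-embedded, and each came from a different dog. The EM biopsy, from a dog with erythema multiforme, was taken from a spayed female Boxer aged 5 years. The CPV biopsy, from a dog with cell-poor vasculitis, came from a spayed female Pomeranian aged 4 years. Pyoderma case 1 was a neutered male Golden Retriever aged 7 years, and pyoderma case 2 was a neutered male German Shepherd aged 9 years. The labels call CPV and pyoderma controls, and healthy skin was not analysed here. Body site, lesion age and prior treatment are not given in the sources used here. Both pyoderma dogs were older and male and both others were younger and female, so diagnosis, sex and age cannot be told apart.

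The panel counts barcoded probes without amplification. Counts over all targets lay between 517282 and 808877 per biopsy. Normalized counts are counts divided by a size factor from 3 housekeeping genes (*HPRT1*, *B2M* and *RPL13A*, as their geometric mean), and 9 scalings were compared. Intervals beside a count are 95% Poisson limits and cover the error of counting alone. In a bulk biopsy, fewer cells of a type and less RNA per cell cannot be told apart. Only 1 of 17 listed neutrophil markers, *CEACAM1* itself, was paired with a target, so neutrophil content was not checked here against a second marker. The study names *CSF3R*, the receptor of a neutrophil growth factor, as a measured gene, and it and others may be among the 88 targets with no symbol here.

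Low counts were first set against the 8 negative control probes, which match no dog transcript. Background was their mean + 2 SD in the same biopsy, and it lay at 16.3 counts in EM, 15.2 in CPV, 12.99 in pyoderma case 1 and 15.9 in pyoderma case 2. *CXCL8*, *IL1B* and *CEACAM1* exceeded it in all 4 biopsies, as did 80.6% of the 160 targets. *IL17A* exceeded it in 1 biopsy, pyoderma case 2. The lowest count of the other 3 genes was the 35 counts of *IL1B* in EM, which was 3.68 times the mean negative probe of that biopsy.

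**Figure D1:**
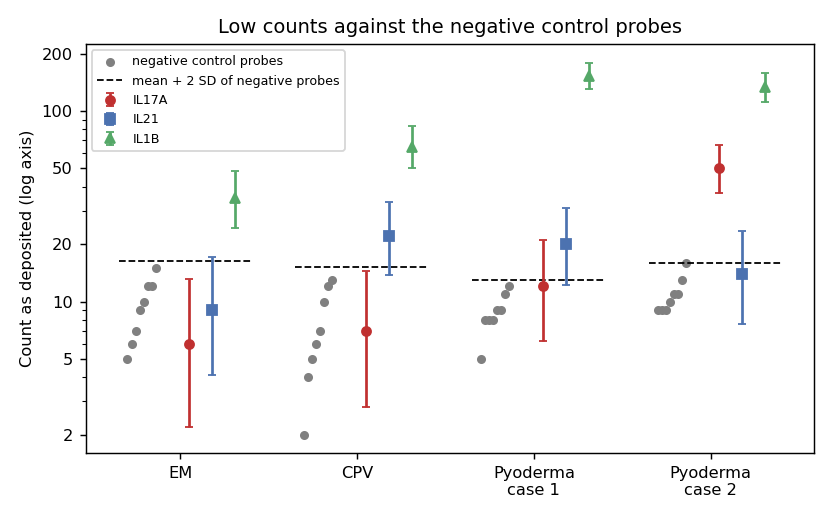
Counts as deposited (log axis) of *IL17A*, *IL21* and *IL1B* in each biopsy with 95% Poisson limits, beside the 8 negative control probes of that biopsy in grey and their mean + 2 SD as a dashed line. *IL17A* stands above the dashed line only in pyoderma case 2, at 50 counts, and *IL1B* stands above it in all 4 biopsies.

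*CXCL8* was counted 849 times in EM, 744 times in CPV, 1245 times in pyoderma case 1 and 3287 times in pyoderma case 2. Normalized counts were 697 (651 to 746) in EM, 825 (767 to 886) in CPV, 1364 (1290 to 1442) in pyoderma case 1 and 3396 (3281 to 3515) in pyoderma case 2. Both pyoderma biopsies lay above both others, and no interval overlapped another. Pyoderma case 2 had 4.87 times the EM level and 4.12 times the CPV level, whereas pyoderma case 1 had 1.96 and 1.65 times. EM and CPV were the closest neighbours in this order, with CPV 1.18 times EM, and which of them was lower followed the scaling, EM under 6 of 9 scalings and CPV under 3.

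*IL17A* was counted 6 times in EM (2.20 to 13.1), 7 times in CPV (2.81 to 14.4), 12 times in pyoderma case 1 (6.20 to 21.0) and 50 times in pyoderma case 2 (37.1 to 65.9). The first 3 counts lay between 0.632 and 1.37 times the mean negative probe of their biopsy, so no order among them can be read. In pyoderma case 2 the count was 4.55 times the mean negative probe, and the highest negative probe there was 16. The 6 positive control probes form a ladder of counts, and the lowest of them had 87 counts in that biopsy. *IL17A* reached 0.575 times this lowest rung in pyoderma case 2 and between 0.0632 and 0.176 times in the 3 other biopsies. This second yardstick uses neither the housekeeping genes nor the negative probes. It divides the same *IL17A* counts by 1 probe, which ran from 42 to 95 counts, so it is not independent support for the place of pyoderma case 2.

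*IL1B* was counted 35 times in EM, 65 times in CPV, 153 times in pyoderma case 1 and 133 times in pyoderma case 2. Normalized counts were 28.7 (20.02 to 39.98) in EM, 72.1 (55.6 to 91.8) in CPV, 168 (142 to 196) in pyoderma case 1 and 137 (115 to 163) in pyoderma case 2. Here the pyoderma biopsies stood together, with overlapping intervals, and both lay above CPV and EM. Pyoderma case 1 had 5.83 times the EM level and 2.33 times the CPV level, and pyoderma case 2 had 4.78 and 1.91 times. EM was lowest under all 9 scalings, and its interval did not reach that of CPV, which was 2.51 times as high.

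*CEACAM1* was counted 384 times in EM, 1879 times in CPV, 764 times in pyoderma case 1 and 973 times in pyoderma case 2. Normalized counts were 315 (285 to 349) in EM, 2083 (1990 to 2179) in CPV, 837 (779 to 899) in pyoderma case 1 and 1005 (943 to 1071) in pyoderma case 2. The gene was highest in CPV and lowest in EM under all 9 scalings, so on normalized counts the pyoderma biopsies lay between the others and not above them. CPV exceeded EM 6.60-fold, pyoderma case 1 2.49-fold and pyoderma case 2 2.07-fold with housekeeping scaling. The size of these folds followed the scaling. CPV had 1466 against 1187 in pyoderma case 2 with the panel total, and 2664 against 869 with the positive control probes. With housekeeping scaling the 2 paired markers of macrophages and antigen-presenting cells, of 11 listed, had the same order as *CEACAM1*. *CD163*, a scavenger receptor of macrophages, had 1375 normalized counts in CPV, 735 in pyoderma case 2, 597 (548 to 650) in pyoderma case 1 and 571 (529 to 615) in EM. The intervals of pyoderma case 1 and EM overlapped, and unscaled counts put EM higher, at 695 against 545. *CD86*, a costimulatory ligand, had 1262, 869, 676 and 474 in that order of biopsies. *KLRD1*, a marker of cytotoxic cells, had 97.6 (78.2 to 120), 94.0 (75.7 to 115), 55.9 (41.6 to 73.5) and 46.8 (35.5 to 60.6) in the same order. The first pair of intervals overlapped, and so did the last pair. Unscaled counts put pyoderma case 2 above CPV, at 91 against 88, and EM above pyoderma case 1, at 57 against 51. Whether the order was particular to macrophages and antigen-presenting cells thus cannot be read from *KLRD1*. The 4 paired keratinocyte markers, of 11 listed, summed to 282853 normalized counts in CPV, 211040 in pyoderma case 1, 111265 in EM and 79221 in pyoderma case 2. *KRT1*, *KRT5* and *KRT14* make up most of that sum, while *KLK7*, an epidermal protease gene, had 3252 in CPV, 9312 in pyoderma case 1, 5544 in EM and 3143 in pyoderma case 2. *COL1A1*, the collagen gene of dermal fibroblasts, had 4310 in CPV against 69257 in EM, 44948 in pyoderma case 1 and 138520 in pyoderma case 2. Within a biopsy, the ratio of *CEACAM1* to *KRT14* counts was 0.0772 in pyoderma case 2, 0.0240 in CPV, 0.0198 in pyoderma case 1 and 0.0176 in EM. The ratios to *KRT5* and *KRT1* were also highest in pyoderma case 2, so relative to these keratins CPV was not the highest biopsy. Relative to *KLK7*, the other paired keratinocyte marker, CPV was the highest biopsy by the normalized counts above. CPV was also highest relative to *COL1A1*, at 0.483 against at most 0.0186 in the others. Which biopsy was highest thus depends on the marker chosen. The part of these cell types in the *CEACAM1* values was not tested.

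**Figure D2:**
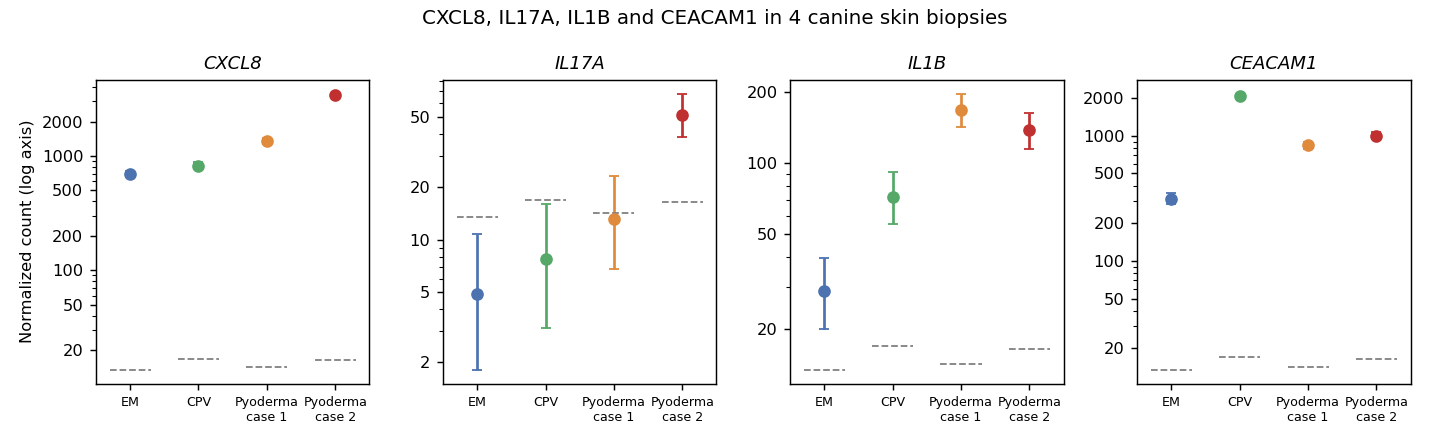
Normalized counts (log axis) of the 4 genes in the EM, CPV and 2 pyoderma biopsies, each point 1 dog with its 95% Poisson limits; the dashed lines give the background of each biopsy on the same scale. *CXCL8* and *IL1B* are higher in both pyoderma biopsies than in EM and CPV, *IL17A* clears background in pyoderma case 2 only, and *CEACAM1* is highest in CPV.

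The pyoderma biopsies were next compared with each other. With 1 dog on each side there is no test, and the intervals of the ratios are exact 95% intervals for counting error. *CXCL8* was 2.49-fold higher in case 2 than in case 1 (2.33 to 2.66), and *IL17A* was 3.93-fold higher (2.06 to 8.10), although its case 1 count was within background. *CEACAM1* was 1.20-fold higher in case 2 (1.09 to 1.32). *IL1B* in case 2 was 0.820 times the case 1 level (0.645 to 1.04), an interval that includes equal levels. *CXCL8*, *IL17A* and *CEACAM1* were higher in case 2 under all 9 scalings, and *IL1B* under 1.

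Differences of this size between the pyoderma dogs were common on the panel. In all, 14.4% of the 160 targets were at least 2-fold higher in case 2, among them *CXCL8* and *IL17A*. A further 34 targets had at most 0.5 times their case 1 level in case 2, and the median absolute log2 ratio was 0.69. By the size of the ratio *CXCL8* ranked 17 among the 160 targets. These shares and this rank use no filter, and 147 of the 160 targets exceeded background in each pyoderma biopsy, so ratios of counts within background are among them. *IL17A* is given no rank, since its case 1 count was within background. Pyoderma case 2 was the highest of the 4 biopsies for 26.9% of targets, and for 2 of the 4 genes. The tissue markers of these dogs also differed. *COL1A1* was 3.08-fold higher in case 2 than in case 1, and *KRT14*, a keratin of basal keratinocytes, had 13027 and 42258. Within a biopsy, where no scaling enters, the ratio of *CXCL8* to *COL1A1* counts was 0.0245 in case 2 and 0.0304 in case 1, while the ratio of *CXCL8* to *KRT14* was 0.261 and 0.0323. *CXCL8* was thus higher in case 2 relative to the keratin and lower relative to the collagen, and the part of the tissue composition in it was not tested.

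**Figure D3:**
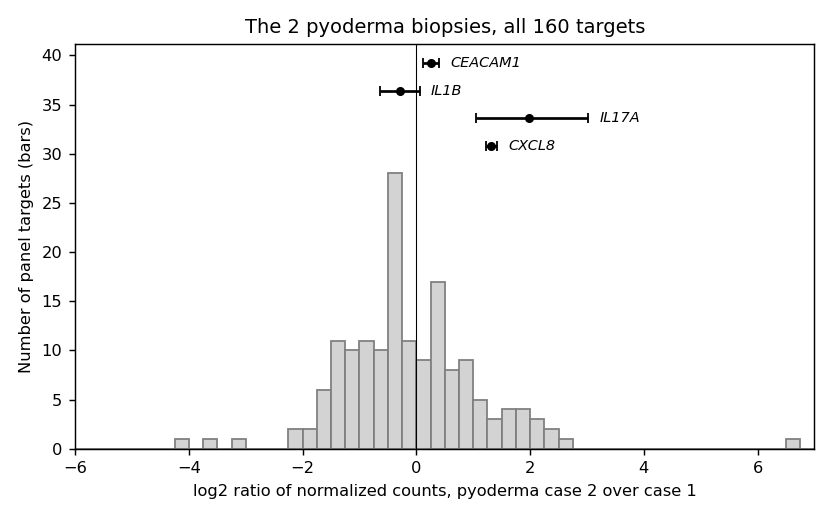
Log2 ratio of normalized counts in pyoderma case 2 over pyoderma case 1: grey bars count the 160 panel targets, and black points mark the 4 genes with exact 95% counting intervals (their height has no meaning). *CXCL8* and *IL17A* lie to the right, at ratios of 2.49 and 3.93, within the range of other targets, and the interval of *IL1B* crosses 0.

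To ask whether the genes differed between pyoderma and the other lesions, the 2 pyoderma biopsies were set against EM and CPV together with edgeR's quasi-likelihood test and Benjamini-Hochberg adjustment over the 160 targets. None of the 4 genes passed an adjusted p of 0.05, and 0.625% of the targets did, which was 1 target, XM_005628934.3. That target, named after its values were seen, was paired with no symbol and had 34.5 normalized counts in EM, 49.9 in CPV, 193 in pyoderma case 1 and 849 in pyoderma case 2. *CXCL8* had a mean of 2380 ± 1437 (SD, n = 2) in pyoderma and 761 ± 90.2 (SD, n = 2) in EM and CPV, a log2 fold change of 1.65 (standard error 0.69, edgeR adjusted p = 0.508). Its spread between the pyoderma dogs was nearly as large as the difference between the means, and without pyoderma case 2 the log2 fold change was 0.84. *IL1B* had 153 ± 21.4 (SD, n = 2) in pyoderma and 50.4 ± 30.6 (SD, n = 2) in the others, a log2 fold change of 1.60 (standard error 0.86, edgeR adjusted p = 0.679), which was 1.08 without EM and 2.40 without CPV. *IL17A* had a log2 fold change of 2.35 (standard error 0.94, edgeR adjusted p = 0.508), but it rests on the single biopsy above background and was 1.05 without pyoderma case 2. *CEACAM1* had 921 ± 119 (SD, n = 2) in pyoderma and 1199 ± 1250 (SD, n = 2) in the others, a log2 fold change of -0.38 (standard error 0.74, edgeR adjusted p = 0.995), and its sign turned to 1.55 without CPV.

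At an unadjusted p under 0.05, 6.25% of targets were higher in pyoderma, and 2 of the 4 genes, *CXCL8* and *IL17A*, were among them in the edgeR fit with housekeeping scaling. For *CXCL8* this depended on the scaling. Its unadjusted edgeR p was 0.064 with TMM, 0.070 with the panel total and 0.072 with unscaled counts. It was 0.078 with the positive control probes and 0.052 with the median of ratios, and it stayed under 0.05 when *B2M*, *RPL13A* or *HPRT1* was omitted. Both pyoderma biopsies lay above both others for 18.8% of targets and for 3 of the 4 genes, *CXCL8*, *IL17A* and *IL1B*, a count that for *IL17A* includes values within background. That order held under all 9 scalings for these 3 genes and under none for *CEACAM1*. An exact two-sided permutation test of 2 biopsies against 2 cannot go below p = 0.333. Over the whole panel the median log2 fold change was 0.08, and it ran from -0.17 to 0.22 over the 9 scalings. Relative to this median, *CXCL8* ran from 1.45 to 1.68, *IL17A* from 2.15 to 2.45, *IL1B* from 1.40 to 1.71 and *CEACAM1* from -0.66 to -0.08.

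**Figure D4:**
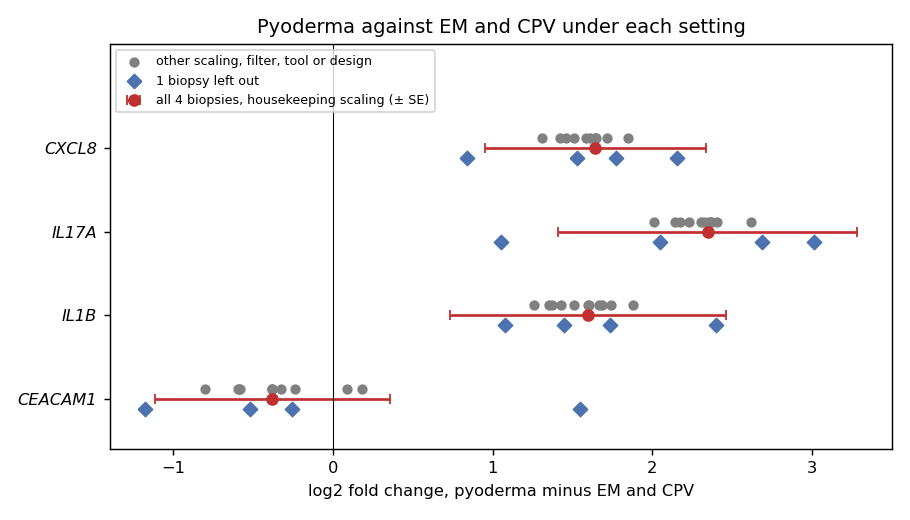
Log2 fold change of each gene between pyoderma and EM with CPV: red points with all 4 biopsies and housekeeping scaling (bars, ± standard error), grey points under other scalings, filters, tools or designs, and blue diamonds with 1 biopsy left out; subtraction of background is not drawn. *CXCL8* and *IL17A* drop to 0.84 and 1.05 when pyoderma case 2 is left out, and *CEACAM1* turns from -0.38 to 1.55 when CPV is left out.

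A fit with EM, CPV and pyoderma as 3 groups, whose spread comes from the pyoderma pair alone, separated the comparators. Against EM, pyoderma differed by a log2 fold change of 1.77 for *CXCL8*, 2.69 for *IL17A*, 2.40 for *IL1B* and 1.55 for *CEACAM1*, with edgeR adjusted p from 0.286 to 0.772. Against CPV, the values were 1.53 for *CXCL8*, 2.05 for *IL17A* and 1.08 for *IL1B*, and -1.18 for *CEACAM1*, with edgeR adjusted p from 0.547 to 0.850. In each of these comparisons 1.25% of the targets passed the threshold, and none of the 4 genes did. Both use the same pyoderma biopsies. *CEACAM1* was the gene for which the sign differed, above EM and below CPV.

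The lists of this pathway held few other genes that were paired with a target. Of 13 neutrophil chemoattractants and receptors, 2 were paired, *CXCL8* and *PPBP*. Of 21 genes of the IL-17 axis, 5 were paired, *IL17A*, *IL12B*, *IL21*, *IL6* and *CCL20*. Of 19 genes of the IL-1 and TNF list, 2 were paired, *IL1B* and *TNF*. None of the 6 genes besides the 4 passed the edgeR test in either direction, with adjusted p from 0.679 to 0.995.

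*PPBP*, a platelet chemokine that acts on CXCR2 and lies close to *CXCL8* in the gene table of the dog genome, had 96.9 normalized counts in EM, 192 in CPV, 232 in pyoderma case 1 and 126 in pyoderma case 2. Unlike *CXCL8*, it was 1.84-fold higher in pyoderma case 1 than in case 2 (1.47 to 2.32). Within a biopsy, *CXCL8* was counted 26.9 times as often as *PPBP* in pyoderma case 2 and between 4.301 and 7.19 times as often in the other 3.

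*TNF*, the cytokine that acts with interleukin-1 beta on the same NF-kappaB targets, had 87.1 normalized counts in EM, 118 in CPV, 172 in pyoderma case 1 and 156 in pyoderma case 2. With housekeeping scaling it had the same order as *IL1B* with a smaller range, 1.98-fold against 5.83-fold from lowest to highest. The intervals were 71.3 to 105 in EM, 96.2 to 142 in CPV, 146 to 201 in pyoderma case 1 and 132 to 183 in pyoderma case 2. Neighbours in this order overlapped throughout, so it is not resolved between them. Case 2 was highest for *TNF* under 4 of 9 scalings, and both pyoderma biopsies were above the others under 8 of 9 scalings. Its log2 fold change in pyoderma was 0.68 (standard error 0.79).

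*IL6*, a cytokine of Th17 differentiation, had 50.1 normalized counts in EM, 125 in CPV, 28.5 in pyoderma case 1 and 178 in pyoderma case 2. Pyoderma case 1 was lowest under all 9 scalings and case 2 highest under 8, and the ratio of case 2 to case 1 was 6.24 (4.11 to 9.82), larger than that of *CXCL8*.

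*CCL20*, the chemokine that attracts CCR6-bearing Th17 cells and is induced by interleukin-17, went the other way. It had 175 normalized counts in EM, 142 in CPV, 385 in pyoderma case 1 and 160 in pyoderma case 2. Case 1 was highest under all 9 scalings and exceeded case 2 2.40-fold (1.98 to 2.92), so the biopsy with *IL17A* above background was not the biopsy with the most *CCL20*.

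*IL12B* encodes the subunit shared by interleukin-12 and interleukin-23. It had 63.2 normalized counts in EM, 222 in CPV, 50.4 in pyoderma case 1 and 39.3 in pyoderma case 2. Both pyoderma biopsies lay below the others with housekeeping scaling, and the log2 fold change was -1.66 (standard error 0.90, edgeR adjusted p = 0.679). *IL21*, a cytokine of Th17 and follicular helper cells, was near background, with 9 counts in EM, 22 in CPV, 20 in pyoderma case 1 and 14 in pyoderma case 2, of which those in CPV and pyoderma case 1 exceeded it.

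**Figure D5:**
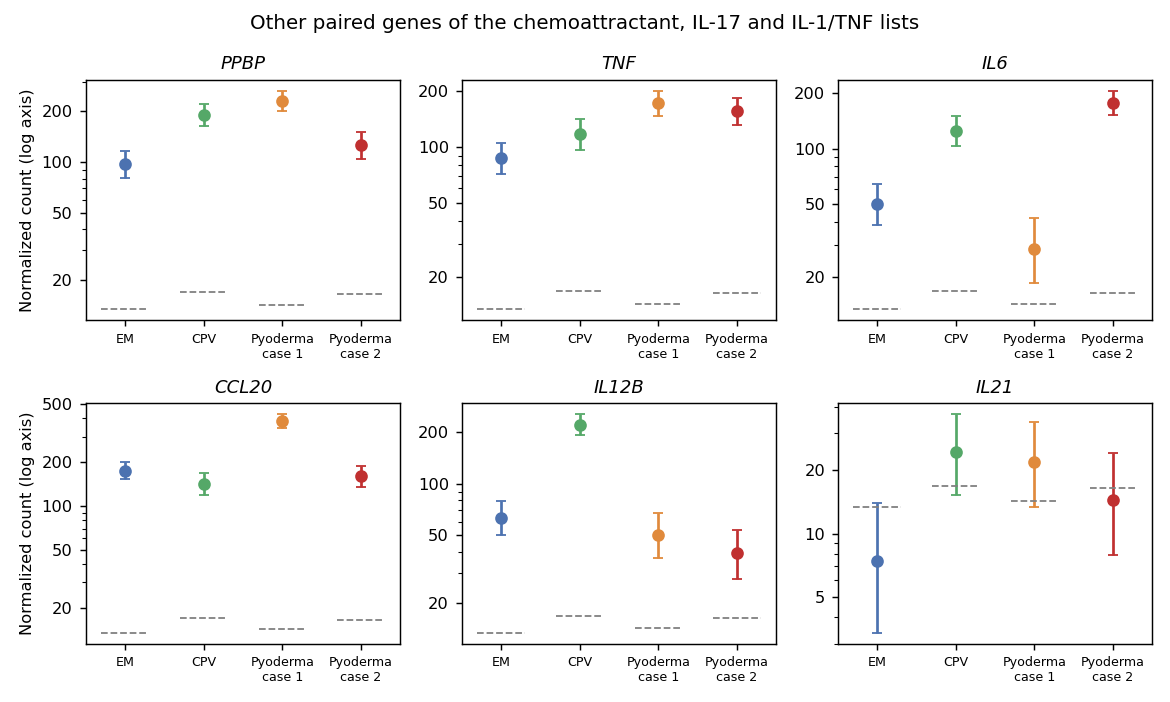
Normalized counts (log axis) of the 6 other paired genes of the chemoattractant, IL-17 and IL-1/TNF lists in each biopsy, with 95% Poisson limits and the background of each biopsy as dashed lines. With this scaling *TNF* is higher in both pyoderma biopsies, although the intervals of case 2 and CPV overlap. *IL6* is lowest in case 1 and highest in case 2, and *CCL20* and *PPBP* are higher in case 1 than in case 2.

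The genes whose pattern over the 4 biopsies was most like that of each gene were ranked by the root mean square difference of centred log2 normalized counts, among 57 paired targets that reached 50 counts in any biopsy. For *CXCL8* the nearest was *CD38*, an ectoenzyme of plasma cells and activated leukocytes, at a difference of 0.26, and *CXCL12* followed at 0.47, where the median over the candidates was 1.01. *CD38* had 103 normalized counts in EM, 127 in CPV, 156 in pyoderma case 1 and 648 in pyoderma case 2, so the nearest gene shares the high value of that one biopsy. *IL17A*, which came between them at 0.31, reached 50 counts in pyoderma case 2 alone and was within background elsewhere, so neither that likeness nor a ranking of its own neighbours can be read. For *IL1B* the nearest was *CCL28*, an epithelial chemokine, at 0.12, then *IFNG* at 0.59 and *TNF* at 0.60, with a median of 1.03. *CCL28* had 38.6 normalized counts in EM, 75.4 in CPV, 199 in pyoderma case 1 and 158 in pyoderma case 2. For *CEACAM1* the nearest were *CD86* at 0.47, *CCL7* at 0.49 and *SLC6A2* at 0.49, with a median of 1.08. With only 4 points per gene, these are descriptions of these biopsies.

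Among the 3 genes above background in all biopsies, *CXCL8* and *IL1B* differed by 0.69 on the same measure, *IL1B* and *CEACAM1* by 0.94 and *CXCL8* and *CEACAM1* by 1.16. Within a biopsy, *CXCL8* counts were 3.38 times those of *CEACAM1* in pyoderma case 2, 2.21 times in EM, 1.63 times in pyoderma case 1 and 0.396 times in CPV. Probes differ in efficiency, so only the order of the biopsies can be read from such a ratio. By it the pyoderma dogs did not stand together, since EM lay between them. The ratio of *CXCL8* to *IL1B* was 24.7 in pyoderma case 2, 24.3 in EM, 11.4 in CPV and 8.14 in pyoderma case 1. The EM ratio rests on 35 *IL1B* counts, so its place beside pyoderma case 2 is not resolved.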

How the data were processed

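RNA was isolated by the authors from formalin-fixed, paraffin-embedded skin of 4 dogs, hybridized to a custom nCounter panel and read on a Sprint instrument. The deposited values are raw counts per probe, unscaled, for 160 targets, 6 positive and 8 negative control probes, the last told apart by their counts. The positive control probes differed 1.79-fold between biopsies, so the scaling can change a fold. Through a RefSeq gene table of UU_Cfam_GSD_1.0, used for names and neighbours only, 72 targets were given a symbol. Of 4 housekeeping genes the study names, 3 were paired and used.

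Tests used edgeR 4.0.16 (R 4.3.3) with no filter, and the fit was tested on simulated data. Standard errors were derived from the fold change and its F statistic. The housekeeping scaling was compared with 8 others: TMM, panel total, no scaling, positive control probes, median of ratios, and omission of *B2M*, *RPL13A* or *HPRT1*. DESeq2 1.42.0, a filter, background subtraction, pseudocounts and left-out biopsies were further alternatives, and the contrasts of pyoderma with EM or CPV alone were added after the data were seen. Named genes are the 4 genes, the paired genes of the lists and the 3 nearest patterns of each gene, on log2 values with a pseudocount of 1. The genes and lists were chosen with earlier results of these data known. Other steps ran in Python 3.11.15 with scipy 1.17.1.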

Additional observations from a re-analysis of the deposited data

How the results depend on the processing

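None of the 4 genes passed the threshold between pyoderma and the other lesions under any alternative run, and the direction of *CXCL8* and *IL1B* was the same in all of them. That of *IL17A* was the same too, but without pyoderma case 2 it rests on counts within background, where no order can be read. Most alternatives reuse the same counts, so agreement in direction is not independent support. The count of targets past the threshold, 1, was 0 in edgeR with the panel total, TMM, unscaled counts, the median of ratios, the housekeeping genes without *B2M* or without *RPL13A*, background subtraction and a filter at 20 counts (4 to 13 targets at an unadjusted p under 0.05). It was 3 with the positive control probes and with DESeq2, 4 without *HPRT1* and with 3 groups, 2 for pyoderma minus EM and for pyoderma minus CPV, and 1 to 3 with 1 biopsy left out.

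With 1 biopsy left out, log2 fold changes ran from 0.84 to 2.16 for *CXCL8*, 1.05 to 3.02 for *IL17A*, 1.08 to 2.40 for *IL1B* and -1.18 to 1.55 for *CEACAM1*. *CEACAM1* changed sign to 0.091 with the panel total, 0.18 with 3 groups, and 1.55 without CPV and for pyoderma minus EM. *IL17A* came to 7.46 after background subtraction, which left EM and CPV at 0, so that value depends on the prior count.

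The log2 ratio of pyoderma case 2 to case 1 moved beyond its counting interval for *CXCL8* (1.498 with TMM, 1.61 with the panel total, 1.11 with the positive control probes, 1.47 with the median of ratios, 1.54 without *B2M* and 1.18 without *HPRT1*) and for *CEACAM1* (0.45 with TMM, 0.56 with the panel total, 0.058 with the positive control probes, 0.42 with the median of ratios and 0.49 without *B2M*). It was 3.27 for *IL17A* after background subtraction, and for *IL1B* it changed sign to 0.0087 with the panel total. The scalings shift every gene of a biopsy alike, which gives the cause of their moves; background subtraction left few *IL17A* counts in case 1.

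The number of biopsies above background did not change with the highest negative probe or mean + 3 SD as the limit. No paired analysis was possible because there is only 1 dog with EM and 1 with CPV, and a case number shared by 2 diagnoses marks different animals. Values of *IL17A* and *IL21* are limited by probe background, which their counts did not exceed in 3 and 2 biopsies.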
